A study of Mus musculus with 8 samples.

Results

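The genes described here are named for proteins of the mitochondrial ribosome, the particle that translates the messenger RNAs of the mitochondrial genome. They were taken as all genes that a single-symbol probe set names Mrpl or Mrps followed by a digit, with the probe set of the highest mean kept where a gene had several. There were 77 such genes among the 14890 genes tested. All 77 passed the level minimum of 5.25 (mean log2 value over all arrays), and their means ran from 5.84 to 10.16. By symbol, 48 are named Mrpl and 29 Mrps. The choice by symbol includes Mrps36, whose protein is not known as one of the ribosome, and leaves out ribosomal proteins with other symbols.

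RNA was measured on whole-transcript gene arrays in the striatum of both brain sides of male C57BL/6 mice, 6 weeks old, with 1 array per mouse and 2 mice in each of 4 groups. The control mice were injected with saline into the abdomen once daily for 4 weeks. The mice of the other groups received MPTP (20 mg/kg, every 24 h for 4 weeks), a toxin of dopamine neurons used to model parkinsonism: the MPTP group received nothing else. By hand, and in 14 sessions 48 h apart, needles went into GB34 to 3 mm and LR3 to 1 mm in the acupoint group, and into both hips to 3 mm in the non-acupoint group. All needled mice thus carried MPTP as well, and no group was needled without it.

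The mitochondrial ribosome makes the core subunits of the respiratory chain and of ATP synthase that the mitochondrial genome encodes. Its RNAs come from that genome, while all its proteins are encoded in the nucleus, made in the cytosol and imported. The small subunit binds the messenger and reads the code, and the large subunit joins the amino acids. The striatum receives the axon endings of midbrain dopamine neurons, whose cell bodies lie outside it, so these values are of RNA from the cells of the dissected tissue.

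The arrays differed in which tissue their markers point to. All 10 markers of striatal projection neurons tested (among them Drd1, Drd2, Penk and Ppp1r1b) were lower in MPTP mouse 1 than in both controls, with a mean of 8.89 against 10.94 and 10.97 in the controls, and all 10 were higher in MPTP mouse 2, at 11.32. The 9 markers of thalamus, septum and pallidum had a mean of 10.56 in MPTP mouse 1, 7.51 in MPTP mouse 2 and 8.33 to 8.34 in the controls. In the needled mice the striatal means were 10.83 and 11.21 with acupoints and 10.83 and 10.34 with non-acupoints. Choroid plexus markers, 9 tested, were all above both controls in MPTP mouse 1, acupoint mouse 1 and both non-acupoint mice. Markers of ependyma, the lining of the ventricles, were low with MPTP alone. All 7 were below both controls in both MPTP mice, with means of 6.55 and 6.79 against 7.08 in each control. The means were 7.22 and 6.95 with acupoints, on both sides of the controls, and 7.24 and 7.49 with non-acupoints. The 4 cortical excitatory neuron markers tested had means of 8.61 to 8.65 in controls and 7.81 and 8.59 with MPTP. With acupoints they were 7.89 and 7.92, and with non-acupoints 7.54 and 8.22. In each needled mouse 3 of these 4 lay below both controls. In bulk tissue fewer cells of a type and less RNA per cell cannot be told apart, and the part of tissue make-up in the values below was not tested.

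Promoter letters and layout, which the choice by symbol did not use, were described next, with no test. RefSeq promoter windows (GRCm38.p6, 250 bases before to 50 after the start) were at hand for 68 of the 77 genes. Of these 68, 36.8% held CCGGAAG, the core of the sites bound by GABPA and other ETS factors, on either strand, against 16.8% of the 11809 tested genes with a window and 9.93% of all 27025 genes with a window. CATGCGC, the inner part of the NRF1 site, and GATGGCG, read by YY1, were each present in 11.8% of the 68 genes, against 7% and 6.5% of the genes tested and 4.41% and 4.04% of all genes. GGGCGGG, the box of SP factors, was present in 42.6% of the members and in 49.1% of the genes tested (27.9% of all genes). A gene was counted if any of its windows held the letters, and a match is a string of letters, not a bound site. None of the 4 motifs was found in the windows of 18 of the 68 genes. Among the members with CCGGAAG were Mrps27, Mrps22, Mrps16, Mrpl3, Mrpl34, Mrpl43 and Mrpl52.

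Some members start back to back with another gene. A gene on the opposite strand started within 1000 bases upstream of 26 of the 68 genes (38.2%), against 17.5% of the genes tested and 12.2% of all genes. Some partners were further genes of mitochondria, and their share among the partners was not set beside a background. Sars2, the mitochondrial seryl-tRNA synthetase, starts 147 bases from Mrps12, and Twnk, the mitochondrial DNA helicase, 116 bases from Mrpl43. Ptcd2, a mitochondrial RNA-binding protein, starts 108 bases from Mrps27, and Ndufb5, a complex I subunit, 308 bases from Mrpl47. Other partners included Tmem63b (131 bases from Mrpl14), Klc4 (141 from Mrpl2), Hira (113 from Mrpl40) and Zfp189 (93 from Mrpl50). Mrpl46 and Mrps11 are both members and start 42 bases apart.

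The stretches below, from RefSeq (GRCm38.p6) and written 5′ to 3′ up to the base before the start of the named gene, are shown because these members carry the results that follow or share their start region with another gene. Capitals mark CCGGAAG or GGGCGGG on either strand. At most 150 bases before the start are shown, and the stretches of Mrps27, Mrpl43 and Mrpl46 are shorter because a neighbouring gene begins there. They are chr13:99344679-99344785 (+ strand) for Mrps27, chr19:45006443-45006557 (- strand) for Mrpl43, chr9:98601680-98601829 (- strand) for Mrps22, chr8:71464776-71464925 (+ strand) for Mrpl34, chr14:54426759-54426908 (+ strand) for Mrpl52 and chr7:78783090-78783130 (- strand) for the space between Mrpl46 and Mrps11.
Mrps27: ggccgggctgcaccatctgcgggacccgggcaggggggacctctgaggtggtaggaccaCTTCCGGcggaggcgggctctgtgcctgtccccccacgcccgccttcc
Mrpl43: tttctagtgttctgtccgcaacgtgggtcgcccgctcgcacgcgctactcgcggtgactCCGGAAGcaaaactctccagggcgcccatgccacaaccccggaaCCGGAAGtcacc
Mrps22: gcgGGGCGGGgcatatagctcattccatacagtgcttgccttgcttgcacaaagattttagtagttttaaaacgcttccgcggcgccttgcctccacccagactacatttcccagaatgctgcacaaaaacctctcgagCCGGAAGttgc
Mrpl34: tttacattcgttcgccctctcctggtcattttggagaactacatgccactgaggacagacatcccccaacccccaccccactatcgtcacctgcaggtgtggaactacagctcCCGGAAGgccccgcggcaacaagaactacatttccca
Mrpl52: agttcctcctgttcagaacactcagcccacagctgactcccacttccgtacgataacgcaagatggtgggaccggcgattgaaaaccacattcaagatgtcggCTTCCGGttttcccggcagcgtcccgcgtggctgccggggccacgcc
Mrpl46: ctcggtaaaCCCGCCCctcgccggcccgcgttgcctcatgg

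In Mrps27 the motif lies on the opposite strand and begins 48 bases before the start, in Mrpl52 also on the opposite strand at 47 bases. Mrpl43 holds it on its own strand at 56 and at 12 bases, Mrpl34 at 37 and Mrps22 at 11. The stretch shared by Mrpl46 and Mrps11 holds the SP box and not CCGGAAG.

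**Figure D1:**
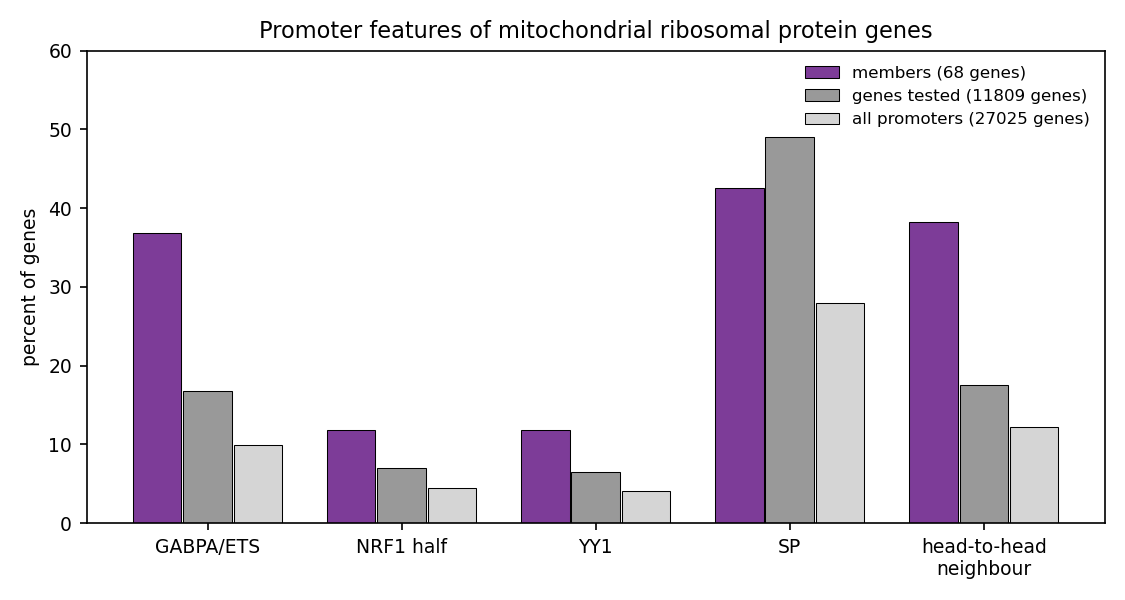
Percent of genes whose promoter window holds each motif on either strand, and percent with an opposite-strand start within 1000 bases upstream, for the 68 members with a window (purple), the 11809 tested genes (grey) and all 27025 genes (light grey). The members stand higher for the GABPA/ETS letters (36.8% against 16.8% of genes tested) and for head-to-head neighbours (38.2% against 17.5%), and lower than the genes tested for the SP box.

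Across the 4 groups the members varied less than most genes tested, as did related families. The SD of a gene's log2 value over the 8 arrays had a median of 0.104 among the members and 0.144 among all genes tested, and 61 of the 77 (79.2%) lay below the median of all genes. The same held for 77.2% of the cytosolic ribosomal protein genes (median SD 0.102) and 72.5% of the respiratory chain genes (0.115). Mrps2, Mrps24, Mrpl3, Mrpl38 and Mrps9 had the smallest SDs. Mrps2 (a homologue of bacterial S2) lay between 7.93 and 8.04 on all 8 arrays, and Mrpl3 (a homologue of L3, which reaches into the catalytic core) between 9.04 and 9.15. Mrpl22, Mrps27, Mrps10, Mrpl13 and Mrpl41 had the largest SDs. In Mrpl22 (a homologue of L22 at the peptide exit) the spread came from the controls, at 6.14 and 7.06, and the other 6 arrays lay between 6.49 and 6.77. In Mrps10 the controls were likewise furthest apart, at 8.01 and 7.38.

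**Figure D2:**
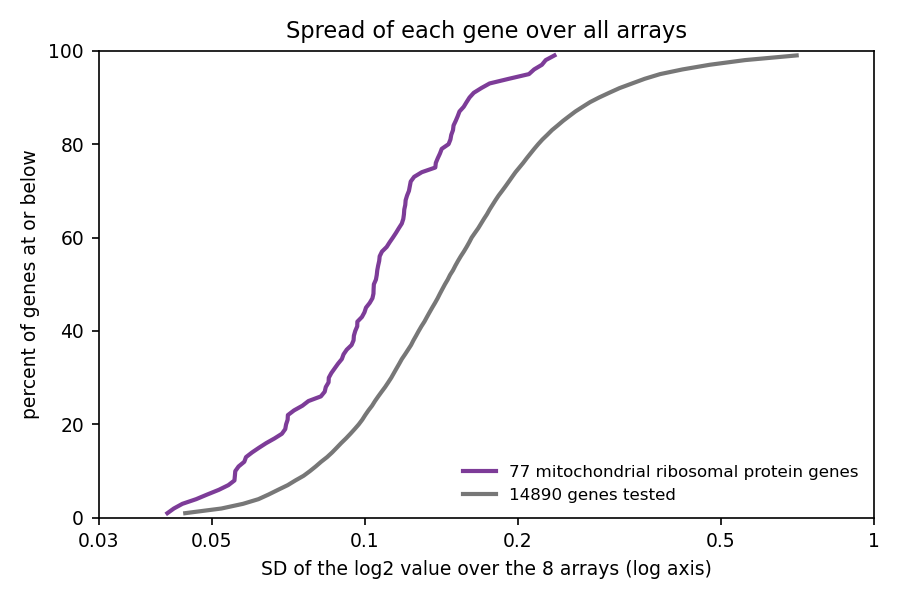
Percent of genes (y axis) whose SD over the 8 arrays is at or below the value on the x axis (log2 units, log axis), for the 77 members (purple) and the 14890 genes tested (grey). The curve of the members lies to the left, with medians of 0.104 and 0.144.

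The 2 mice of a group differed by a median of 0.088 per member among controls, 0.129 with MPTP alone, 0.084 with acupoints and 0.091 with non-acupoints, on the log2 scale. The same medians over all genes tested were 0.096, 0.205, 0.128 and 0.124. A difference over 0.25 between the MPTP mice was found for 14 members (18.2%) and for 42.5% of all genes. Mrps33 read 9.95 in MPTP mouse 1 and 10.46 in mouse 2, Mrpl52 7.75 and 8.21, and Mrpl41, the other way, 10.16 and 9.61. In each of these the other 6 arrays lay nearer each other than the MPTP mice did. Over the 8 arrays their correlations with the mean of the striatal projection neuron markers were 0.78 (Mrps33), 0.94 (Mrpl52) and -0.96 (Mrpl41). The part of tissue make-up in these differences was not tested.

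For the comparison of MPTP with control, which asks what the toxin alone does, most members were slightly higher in the MPTP mice. The change was positive for 53 of the 77 (68.8%), against 54.3% of all 16342 probe sets tested. The median change was 0.050 on the log2 scale, against 0.015 over all probe sets. No member passed the adjusted p of 0.05 in limma's moderated test (0% of all probe sets did), and 1 member, Mrps27, had an unadjusted p under 0.05, a rate of 1.3% against 3.99% of all probe sets. In 23 members (29.9%) both MPTP mice lay above both controls, against 17.3% of all probe sets, and in 4 (5.19%) both lay below, against 12.1%.

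Array by array, the median over members of the value minus the control mean was -0.023 and 0.023 in the controls, 0.059 and 0.058 in the MPTP mice, -0.020 and -0.016 in the acupoint mice and -0.021 and -0.003 in the non-acupoint mice. Both MPTP mice thus stood above all other 6 arrays by this measure, with a pooled SD within groups of 0.018. Without MPTP mouse 1 the median change was 0.058 and 57 members were higher. Without MPTP mouse 2 it was 0.059, with 50 higher. Without control mouse 1 it fell to 0.027, with 44 higher (57.1%), beside 0.011 over all probe sets, and without control mouse 2 it was 0.070, with 57 higher. The 7 ependyma markers were lower with MPTP than in controls, none overlapping, with a median change of -0.505, and their part in the members' values was not tested. The size depended on the scaling of the arrays: after centring each array on its median it was 0.031, with 49 of 77 higher, and all probe sets then had a median of -0.004. An exact permutation test of 2 against 2 mice cannot give a two-sided p below 0.333.

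**Figure D3:**
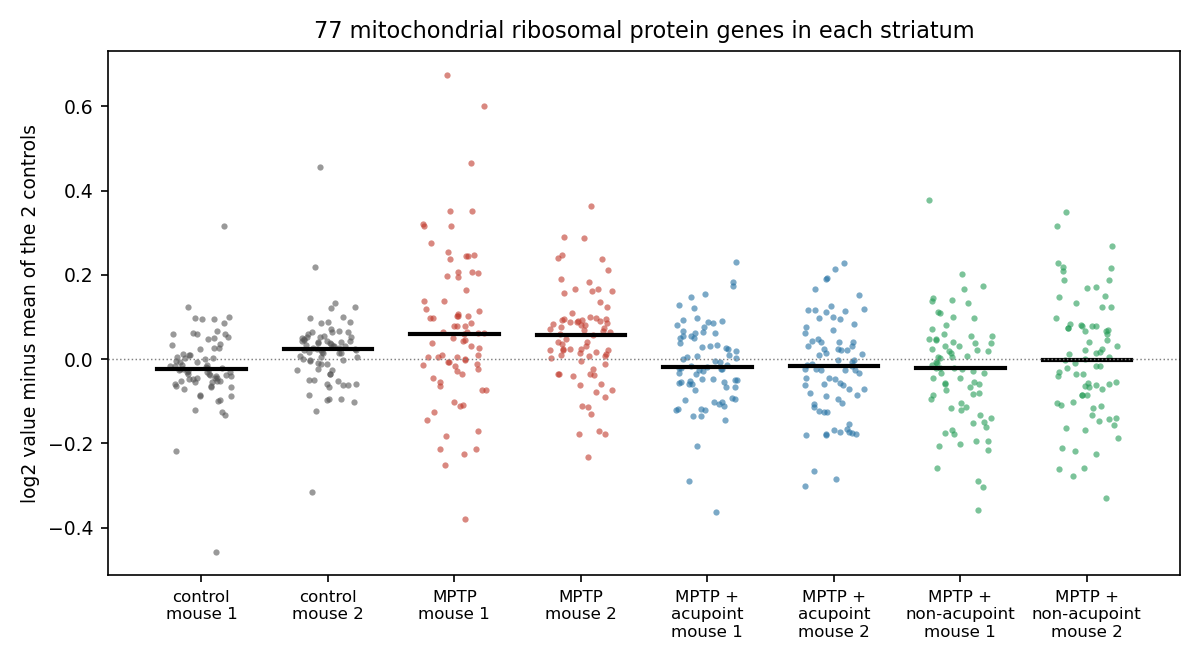
Log2 value of each of the 77 members minus its mean over the 2 controls (y axis), for each of the 8 mice, with the median over members as a black bar. The bars of the MPTP mice lie at 0.059 and 0.058, those of the other 6 mice between -0.023 and 0.023.

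Small-subunit proteins listed as mitochondria-specific, Mrps18b among them, changed by a median of 0.083 (7 of 10 higher). Those listed with bacterial homologues changed by 0.020 (10 of 16). In the large subunit the medians were 0.085 for the mitochondria-specific proteins (14 of 19 higher) and 0.039 for the bacterial homologues (21 of 31). In both subunits the mitochondria-specific proteins had the higher median, a difference that was not tested. In the central protuberance of the large subunit 5 of 6 members were higher and the median was 0.087. Of 8 members at the peptide exit 7 were higher, with a median of 0.036, and the 3 members tested of the stalk that recruits translation factors (Mrpl10, Mrpl11 and Mrpl12) had a median of 0.049. Mrps36, whose protein is known as a subunit of 2-oxoglutarate dehydrogenase and not of the ribosome, changed by 0.087.

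**Figure D4:**
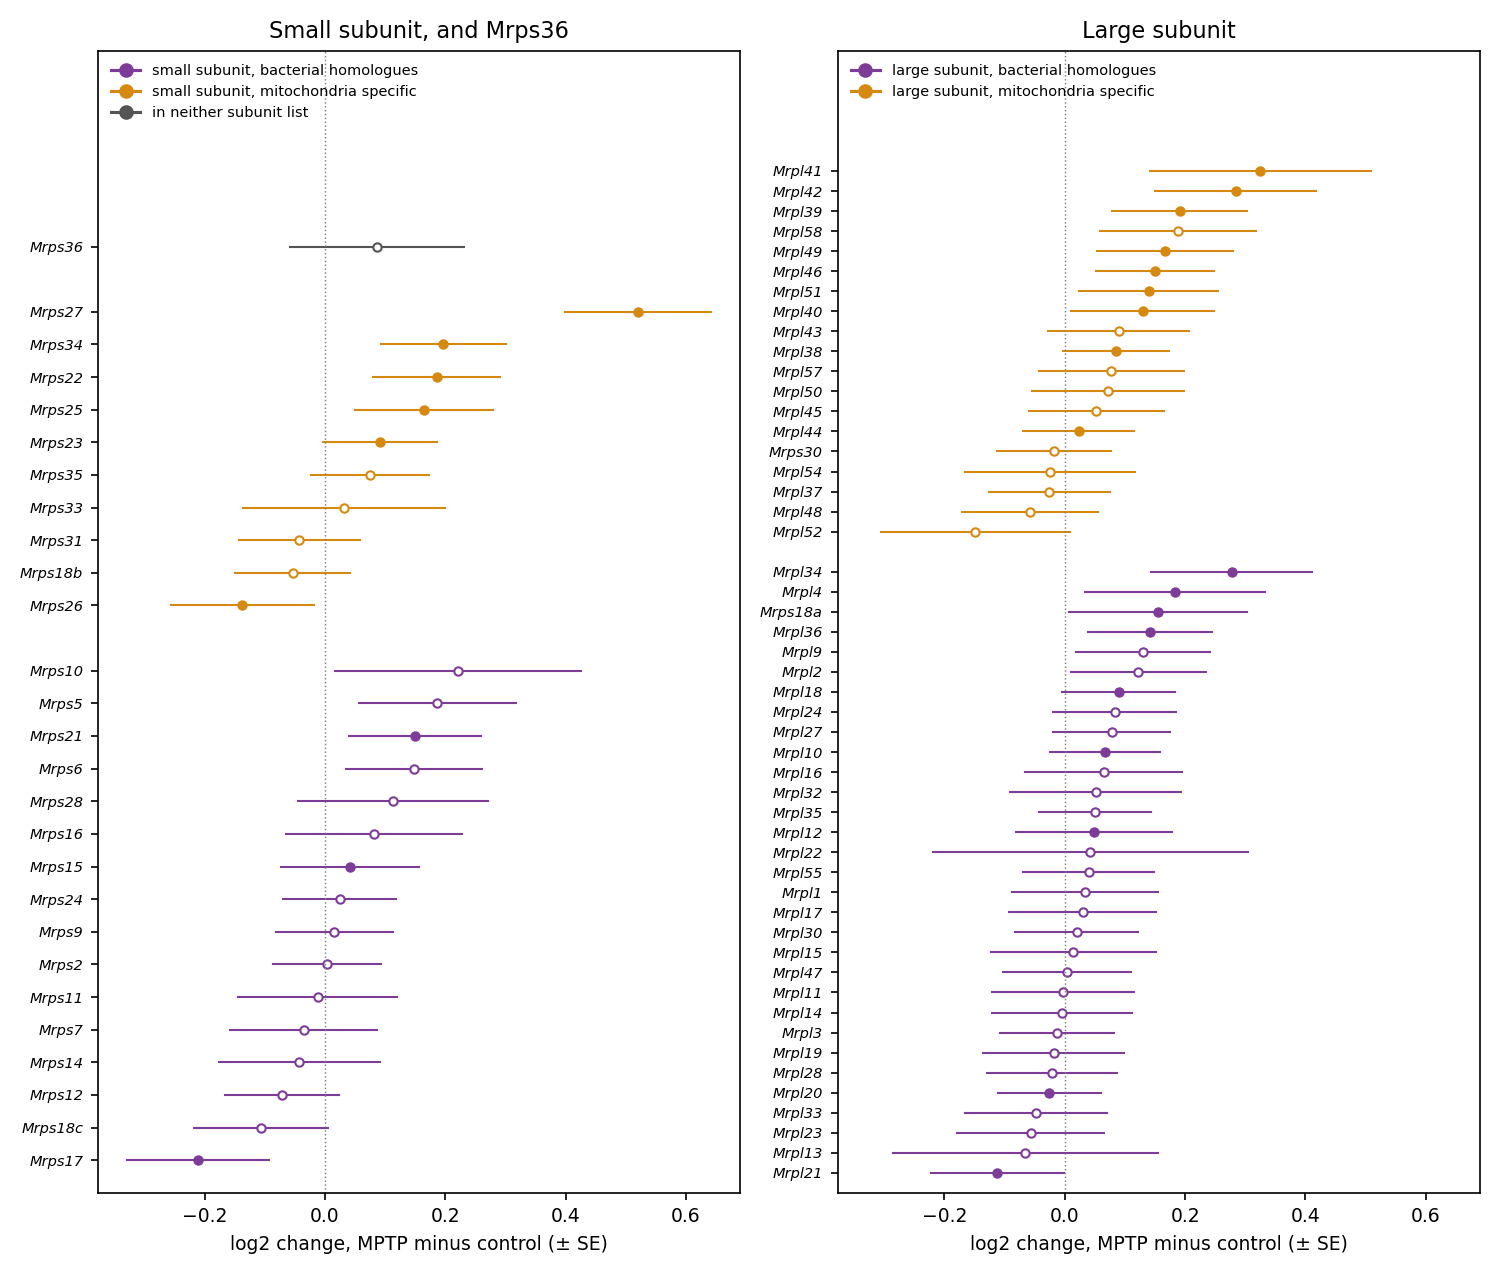
Log2 change from control to MPTP with its standard error from the limma fit (x axis) for each member, small subunit and Mrps36 on the left and large subunit on the right, purple for proteins with bacterial homologues and orange for mitochondria-specific ones. Filled points are members whose 2 MPTP mice both lie above or both below the 2 controls. Mrps27 stands furthest out, at 0.52.

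Mrps27, a pentatricopeptide-repeat protein of the small subunit, had the smallest F-test p of the members. Its log2 values were 7.18 and 7.22 in the controls, 7.87 and 7.56 in the MPTP mice, 7.26 and 7.31 in the acupoint mice and 7.34 and 7.39 in the non-acupoint mice. Both MPTP mice lay above the other 6 arrays. MPTP exceeded control by 0.52 ± 0.12 (SE, 2 mice per group), a fold of 1.43 with a 95% interval of 0.23 to 0.81 on the log2 scale, and its limma p was 0.0037 before and 0.93 after Benjamini-Hochberg adjustment. With MPTP mouse 1 left out the change was 0.36. With mouse 2 left out it was 0.68, with a limma adjusted p of 0.013; in that fit MPTP mouse 1, the array with the low striatal markers, stands alone for its group and is assumed to vary like the other groups. There 3 members (3.9%), namely Mrps27, Mrpl34 and Mrpl41, and 9.83% of all probe sets passed.

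Ptcd2, which starts back to back with Mrps27, had other values. Its control values were 7.98 and 8.27 and its MPTP values 8.28 and 8.22. Its change of 0.12 compares with 0.52 for Mrps27. A partner was measured for 22 members, and pairs of both kinds were found. In opposite directions, Mrpl46 and Mrps11 changed by 0.15 and -0.01, Mrpl43 and Twnk by 0.09 and -0.32, and Mrps12 and Sars2 by -0.07 and 0.18. In the same direction, Mrpl49 and Fau changed by 0.17 and 0.41, Mrpl2 and Klc4 by 0.12 and 0.38, and Mrpl51 and Ncapd2 by 0.14 and 0.06. Whether partners change together was not tested. Members with CCGGAAG in their window had a median change of 0.077 (16 of 25 higher) and those with a window without it 0.049 (31 of 43), and the difference was not tested.

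In 8 members (10.4%) both MPTP mice lay above every one of the other 6 arrays, against 5.1% of all genes tested. They were Mrps27, Mrps25 and Mrps34 of the small subunit and Mrpl10, Mrpl38, Mrpl39, Mrpl40 and Mrpl42 of the large. Mrps34, on which the stability of the small subunit depends, read 8.56 and 8.46 in controls, 8.62 and 8.80 with MPTP, 8.49 and 8.51 with acupoints and 8.57 and 8.51 with non-acupoints. Its change from control was 0.20 ± 0.10 (SE). Mrpl42 read 7.24 and 7.35, then 7.62 and 7.54, then 7.48 and 7.12, then 7.39 and 7.36 in the same order, with a change of 0.28 ± 0.13 (SE). Mrpl39, at the peptide exit, read 9.51 and 9.44 in controls against 9.79 and 9.54 with MPTP, and lay between 9.46 and 9.54 in the needled mice. The limma adjusted p of Mrps34 and Mrpl42 was 0.93.

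Mrps17 was the only member whose MPTP mice both lay below all other arrays (1.3% against 2.19% of all genes). This homologue of bacterial S17, which binds ribosomal RNA, read 8.14 and 8.41 in controls, 8.03 and 8.11 with MPTP, 8.31 and 8.19 with acupoints and 8.16 and 8.17 with non-acupoints. Its change from control was -0.21 ± 0.12 (SE). Mrps26 and Mrpl21 also had non-overlapping, lower values with MPTP, with changes of -0.14 and -0.11.

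Mrpl34 and Mrpl41 rested mainly on MPTP mouse 1. Mrpl34, a homologue of bacterial L34, read 7.45 and 7.43 in controls and 7.91 and 7.53 with MPTP, a change of 0.28 ± 0.13 (SE) that was 0.088 without MPTP mouse 1. Mrpl41 read 9.56 and 9.56 in controls and 10.16 and 9.61 with MPTP. The second probe set of Mrpl41 gave -0.04 for the MPTP change where the first gave 0.33, and the correlation of the pair over the 8 arrays was 0.08. Of the 8 genes with 2 probe sets, those of Mrpl23, Mrps33 and Mrps36 followed each other closely (correlations over 8 arrays of 0.995, 0.987 and 0.937), those of Mrps5 and Mrpl51 less so (0.783 and 0.564), and those of Mrpl27 and Mrpl47 did not (-0.033 and -0.429).

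**Figure D5:**
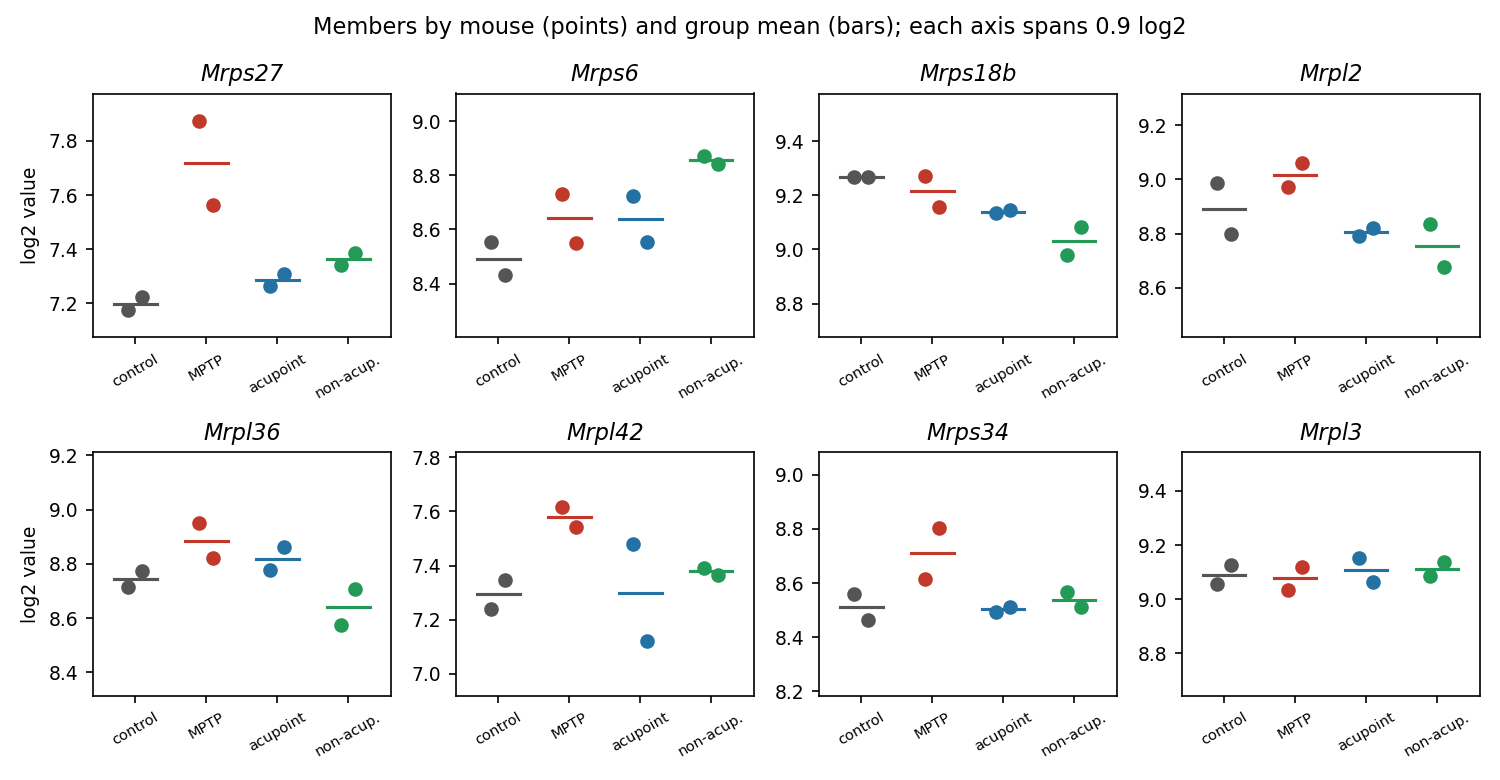
Log2 values of 8 members (y axis, each spanning 0.9 log2 units) in the 4 groups, with a point per mouse and a bar at the group mean. Mrps27 is high in both MPTP mice, at 7.87 and 7.56, Mrps6 is highest in the non-acupoint mice, at 8.87 and 8.84, and Mrpl3 stays between 9.04 and 9.15.

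The comparisons of the needled groups with MPTP alone, which ask what needling at each place changes in treated mice, share the MPTP mice with the comparison above, so opposite signs follow in part from those same 2 arrays. With acupoints 59 of 77 members were lower than with MPTP alone and the median change was -0.060, against -0.036 over all probe sets. In limma 0% of members and of all probe sets passed the adjusted p of 0.05, and 1 member (Mrps27) against 3.6% of probe sets had an unadjusted p under 0.05. Both acupoint mice lay below both MPTP mice in 27 members (35.1%, against 18.9% of all probe sets) and above them in 3 (3.9%, against 8.41%). With the arrays centred the median was -0.028 and 47 members were lower, and without MPTP mouse 2 it was -0.093, with 52 lower. The ependyma markers were higher with acupoints than with MPTP alone in 7 of 7, with a median of 0.410.

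Mrps27 was lower with acupoints than with MPTP alone by 0.43 ± 0.12 (SE), with a limma p of 0.0095 before and 0.90 after adjustment. Mrps5, a homologue of S5 at the messenger entry, read 8.06 and 7.91 with acupoints against 8.44 and 8.11 with MPTP, a change of -0.29 ± 0.13 (SE). Mrpl27, a homologue of L27 beside the catalytic centre, read 8.61 and 8.53 against 8.75 and 8.82, a change of -0.22 ± 0.10 (SE) that its second probe set did not show. The 3 members whose acupoint mice both lay above both MPTP mice were Mrps17, at 0.18 ± 0.12 (SE), Mrpl47, at 0.06, and Mrpl44, at 0.04. Mrpl47 went to -0.034 when its probe sets were averaged. All 6 central protuberance members were lower, with a median of -0.117.

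With non-acupoints 59 members were again lower than with MPTP alone, with a median of -0.077 against -0.007 over all probe sets. In limma 0% of members and of probe sets passed the adjusted threshold, and Mrps27 alone had an unadjusted p under 0.05, against 6.58% of probe sets. Groups did not overlap in 22 members on the lower side (28.6%, against 17.7% of all probe sets) and in 5 on the higher side (6.49%, against 15.4%). With the arrays centred the median was -0.115, with 65 members lower, beside -0.044 over all probe sets. The ependyma markers were higher in 7 of 7, none overlapping, with a median of 0.668.

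Mrps27 was lower by 0.36 ± 0.12 (SE; limma p of 0.022 before and 0.73 after adjustment). Mrpl2, whose bacterial homologue L2 lies near the catalytic centre, read 8.97 and 9.06 with MPTP and 8.84 and 8.67 with non-acupoints, a change of -0.26 ± 0.11 (SE). Mrpl36, a small zinc-binding protein, read 8.95 and 8.82 against 8.58 and 8.71, a change of -0.24 ± 0.10 (SE). Mrps6, Mrpl21 and Mrps17 had non-overlapping higher values with non-acupoints, at 0.21, 0.14 and 0.10.

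Acupoint and non-acupoint needling were also compared directly. The median change over the members was -0.002, with 38 higher and 39 lower with acupoints, against -0.031 over all probe sets. In limma 0% passed after adjustment, no member had an unadjusted p under 0.05 (3.22% of probe sets), and non-overlapping groups were found in 13 members on the higher side (16.9%, against 13.9%) and 14 on the lower (18.2%, against 24.6%). The sign of this median turned with the scaling. It was 0.067 with centred arrays, with 54 members higher, and 0.061 after renewed quantile normalisation, with 51 higher. Mrpl36, Mrpl23 and Mrpl54 were among the higher members, at 0.18, 0.20 and 0.21, and Mrps6, Mrpl20 and Mrpl35 among the lower, at -0.22, -0.14 and -0.14. The change of Mrpl54 rested on non-acupoint mouse 1, which read 6.996 where the other 7 arrays lay between 7.24 and 7.42.

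Against control, which asks how far each needled group stood from the saline-injected mice, acupoint mice differed by a median of -0.010 over the members (35 higher, 42 lower), beside -0.018 over all probe sets. It was -0.035 without control mouse 1 and 0.018 without control mouse 2. In limma 0% passed after adjustment, and no member had an unadjusted p under 0.05 (1.91% of probe sets). Non-overlapping values were found in 10 members on the higher side (13%, against 12.7%) and in 13 on the lower (16.9%, against 21.2%). Mrps22, on which assembly of the small subunit depends, read 7.98 and 7.95 against 7.75 and 7.85 in controls, and Mrps7, which nucleates the head of that subunit, 8.32 and 8.20 against 8.42 and 8.51. Their changes were 0.16 ± 0.11 and -0.20 ± 0.12 (SE).

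Non-acupoint mice differed from control by a median of -0.008 (33 members higher, 44 lower), beside 0.005 over all probe sets. The median was -0.065 with centred arrays, with 59 members lower, and -0.027 without control mouse 1, with 50 lower. In limma 0% passed after adjustment, and 2 members, Mrps6 and Mrps18b, had an unadjusted p under 0.05 (2.6%, against 6.05% of probe sets). Non-overlapping values were found in 11 members on the higher side (14.3%, against 26.9%) and 18 on the lower (23.4%, against 22.6%). Among small-subunit proteins with bacterial homologues 14 of 16 were lower, with a median of -0.037, and in the large subunit 19 of 31 (-0.008). Of the mitochondria-specific proteins 4 of 10 were lower in the small subunit (median 0.013) and 6 of 19 in the large (0.048). Of all probe sets 51.2% were higher. The differences between these lists were not tested.

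Mrps6, a homologue of S6, read 8.55 and 8.43 in controls, 8.73 and 8.55 with MPTP, 8.72 and 8.55 with acupoints and 8.87 and 8.84 with non-acupoints. The non-acupoint mice lay above all others, and their change from control was 0.36 ± 0.11 (SE, with a limma p of 0.015 before and 0.77 after adjustment). Over the 8 arrays Mrps6 had a correlation of 0.92 with the mean of the choroid plexus markers, the highest of any member. That mean was 8.55 and 9.21 in the non-acupoint mice, 8.65 in MPTP mouse 1 and 8.74 in acupoint mouse 1. It was 6.04 in MPTP mouse 2, 6.43 in acupoint mouse 2 and 6.22 to 6.26 in controls. The part of choroid plexus tissue in the Mrps6 change was not tested. Mrps6 begins 14 bases after Slc5a3, the sodium/myo-inositol cotransporter, on the same strand. Slc5a3 has a probe set of its own, which read 8.19 and 8.31 in controls, 8.09 and 8.14 with MPTP, 8.43 and 8.05 with acupoints and 8.77 and 8.76 with non-acupoints. The non-acupoint mice were again above the others, by 0.52 over control (limma p of 0.0073 before and 0.77 after adjustment). Whether the probe sets read any transcript in common was not tested.

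Mrps18b, a relative of bacterial S18, read 9.27 and 9.27 in controls, 9.27 and 9.16 with MPTP, 9.13 and 9.14 with acupoints and 8.98 and 9.08 with non-acupoints. The non-acupoint mice lay below all others, and their change from control was -0.24 ± 0.10 (SE; limma p of 0.041 before and 0.77 after adjustment). Mrps18c, another S18 relative, and Mrps11 were also lower without overlap, at -0.21 ± 0.11 and -0.24 ± 0.13 (SE).

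Over all 4 groups, limma's F-test called 0% of members and of probe sets after adjustment, and 1 member against 3.71% of probe sets before it. That member was Mrps27, with an F-test p of 0.016 and an adjusted p of 0.92. Mrps6 followed at 0.078, then Mrps18b, Mrpl2 and Mrpl36 at 0.16 to 0.19. The MPTP mean was the highest of the 4 group means in 40 members (51.9%, against 32.5% of all genes) and the lowest in 7 (9.09%, against 22.5%). The non-acupoint mean was the highest in 12 (15.6%, against 30.6%).

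The genes that serve this ribosome showed no call either: none of the tested members of any list below passed limma's adjusted p in any comparison. Of all genes tested 54.8% were higher with MPTP than in controls, with a median change of 0.017. In mitochondrial translation factors 9 of 13 were higher with MPTP, with a median of 0.130. Among them Mtif3, an initiation factor, read 7.32 and 7.58 in controls and 7.67 and 7.69 with MPTP, and Tufm, the elongation factor that delivers tRNA, 9.02 and 9.00 against 9.25 and 8.96. For acupoints against MPTP 12 of 13 factors were lower, with a median of -0.133. Over all genes tested 9035 of 14890 were lower in that comparison, with a median of -0.040. Mitochondrial aminoacyl-tRNA synthetases were higher with MPTP in 13 of 19 (median 0.057), assembly and rRNA-modifying proteins in 15 of 24 (0.045), and proteins of mitochondrial transcription and RNA processing in 14 of 20 (0.050).

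Rpusd3, a protein of the pseudouridine synthase family needed for mitochondrial rRNA, was also highest in both MPTP mice. It read 6.52 and 6.58 in controls, 7.10 and 6.72 with MPTP, 6.41 and 6.40 with acupoints and 6.47 and 6.54 with non-acupoints, with an F-test p of 0.032 before and 0.92 after adjustment. Mars2, the mitochondrial methionyl-tRNA synthetase, was lower in the MPTP and acupoint mice than in the others. It read 7.63 and 7.59 in controls, 7.43 and 7.34 with MPTP, 7.43 and 7.42 with acupoints and 7.69 and 7.78 with non-acupoints (F-test p of 0.022 before and 0.92 after adjustment).

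Of 10 listed regulators of mitochondrial genes, 8 were higher and 2 lower with MPTP than in controls, with a median of 0.065. Their changes ran from -0.18 (Myc) to 0.31 (Esrra). Of the regulators known for these promoters, Gabpa changed from control to MPTP by -0.09, Nrf1 by 0.04 and Yy1 by 0.06. Ppargc1a, their coactivator, read 8.44 and 8.56 in controls and 9.12 and 8.45 with MPTP, so that of the MPTP mice only mouse 1 lay above both controls. Ribosomal proteins that carry other symbols (Dap3, Ptcd3, Chchd1 and Gadd45gip1) were higher in 1 of 4, with a median of -0.063.

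Beside the 77 members, the 80 nuclear respiratory chain genes tested, whose products assemble with those made on this ribosome, had a median change with MPTP of 0.084 (67 of 80 higher). By array their median was 0.154 in MPTP mouse 1 and 0.023 in mouse 2, where the members had 0.059 and 0.058. The 57 cytosolic ribosomal protein genes had -0.031 (22 of 57 higher), with -0.103 and 0.027 in the same mice. For acupoints against non-acupoints 52 of the 57 cytosolic genes were higher, with a median of 0.103, where 38 of the 77 mitochondrial members were higher. Of the respiratory chain genes 58 of 80 were higher, with a median of 0.073, and of all genes tested 41.2%, with a median of -0.032. The member count depended on the scaling and was 54 with centred arrays. The differences between the families were not tested.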

How the data were processed

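Per the submitters' processing notes, the authors summarised the arrays by RMA in Affymetrix Expression Console (no versions given), and the deposited values are log2 intensities per probe set, used as they are. Of 35557 probe sets 21789 carried a single symbol in the platform annotation, and the 16342 with a mean at or above their 25th percentile (5.25) entered limma 3.58.1 (R 4.3.3) in a fit of 4 group means over 8 arrays, with Benjamini-Hochberg adjustment over all of them and a threshold of 0.05. The 77 members matched RefSeq by gene ID, and 8 of them had 2 probe sets. A probe set naming a member together with another gene was left out. Levels were not compared between probe sets, whose affinities differ, so members were not ranked by level. Only 2 mice per group limit the precision.

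The members, gene lists and markers were chosen with earlier results of these data known. Members named are, per comparison, up to 3 higher and 3 lower with the smallest p among those whose groups do not overlap, those with the smallest F-test p, those with the smallest and largest SD, and a fixed few with known roles; others were chosen after their values were seen. The labels name each array's mouse; mouse numbers were not found to pair groups. The scripts were tested on simulated data. Promoters were searched with Python 3.11.15. Alternatives tried were the filter, the probe sets tested, shrinkage, array weights, scaling, samples fitted, the replicate block, averaging of probe sets and leaving out each array.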

Additional observations from a re-analysis of the deposited data

How the results depend on the processing

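Over all alternatives, 1059 values were counted as the same. For the change of a named member this meant the same sign and side of the threshold, and for an F-test the same side. For members called it meant the same number, and for a median a shift under the pooled SD of 0.018. By these rules 20 summaries moved. Changes of Mrps27 and Mrpl34 became called only in the fit without MPTP mouse 2. Of the changes of named members 1 turned sign: Mrpl47 (acupoint minus MPTP) at -0.034 with probe sets averaged. A median counted as the same could still turn sign: acupoint minus control went from -0.010 to 0.002 with arrays centred. Scaling and single arrays both moved the member medians. With arrays centred they were 0.031 (MPTP minus control), -0.028 (acupoint minus MPTP), -0.115 (non-acupoint minus MPTP), 0.067 (acupoint minus non-acupoint) and -0.065 (non-acupoint minus control), and after renewed quantile normalisation 0.030, -0.023, -0.099, 0.061 and -0.059. The cause was not tested. With 1 array left out, the median ran from 0.027 to 0.070 (MPTP minus control), from -0.093 to -0.053 (acupoint minus MPTP), from -0.035 to 0.018 (acupoint minus control) and from -0.027 to -0.00088 (non-acupoint minus control). The number of members called ran from 0 to 3 for MPTP minus control and for acupoint minus MPTP, and from 0 to 1 for non-acupoint minus MPTP, and every call came from the fit without MPTP mouse 2: Mrps27 (adjusted p of 0.013, 0.021 and 0.045), Mrpl34 (0.037), Mrpl41 (0.034 and 0.047) and Mrpl52 (0.049). With mouse number as a replicate block 0 members were called in every comparison and the median for MPTP minus control was 0.050. Mice with the same number did not deviate together in all groups. Over all probe sets tested, the correlations of their deviations between groups ran from -0.492 to 0.402. Mrps11 could not be tested under the stricter filter, its mean being too low.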
